A study of Mus musculus with 7 samples.

Results

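The interleukins and their receptors were taken as every gene of the deposited table whose symbol begins with Il and a digit. This rule returned 81 of the 23930 genes measured, and it used no expression value. The libraries came from sorted Pax7-GFP+ cells of mouse hind-leg muscle, which the study labels satellite cells, the stem cells of skeletal muscle. The mice were inducible Pax7 reporters on a C57BL/6 background (the sample labels give a different last number of this strain name for each library, and C57BL/6 was assumed for all), in which a tamoxifen-activated Cre driven by Pax7 switches on GFP, and every mouse of both groups carried this reporter. Mice began exposure at 12 weeks of age and were killed at 16 weeks, after 4 weeks in room air (normocapnia, NC, libraries NC1 to NC3) or in a chamber at 10% CO2 (hypercapnia, HC, libraries HC1 to HC4). In both groups the muscle had also been injured with cardiotoxin 3 days before collection, as given by the methods and not by the sample labels, while the deposited table carries a time of 40 h that is not explained. The labels do not say whether each library came from a separate animal, so the p-values below measure the spread between these 7 libraries. By the chi-square of their read counts per degree of freedom, HC1 with HC2 (22.5) and HC3 with HC4 (25.97) were the closest pairs. The other HC pairs were at 98.5 to 123.85 and the NC pairs at 337 to 475.5. The tests below treat the 4 HC libraries as independent, which was not tested.

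Interleukins are secreted proteins through which immune, stromal and epithelial cells signal to each other. Receptors of the common gamma chain, IL-10 and IL-6 groups signal through JAK kinases and STAT factors, whereas those of the IL-1 and IL-17 groups act through adaptor proteins and NF-kappaB. In injured muscle, cells of the immune infiltrate are a known source of IL-1, IL-6 and IL-10, and satellite cells and macrophages are both known to respond to interleukins.

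Each value is in RPM, reads scaled to a common library total, from an AmpliSeq panel in which 1 short amplicon stands for each gene, so that levels are compared between libraries and not between genes. Libraries held 14527445 to 23388710 reads, and 1 read was worth 0.0428 to 0.0688 RPM. Genes at 1 RPM or more numbered 10619 in NC3 and 13932 in HC4, the ends of the range. The 10 satellite cell markers summed to 3313, 990 and 543 RPM in NC1 to NC3 and to 774 to 1493 RPM in HC. Sdc4 made up 781 RPM of that sum in NC2 and 441 RPM in NC3. Pax7 itself was at 268, 8.25 and 4.34 RPM in NC1 to NC3 and at 21.5, 20.1, 79.5 and 59.65 RPM in HC1 to HC4. Pax7, Myod1, Itga7, Vcam1 and Cdh15 were lower in NC2 and NC3 than in every HC library. For Myf5, Chrdl2, Calcr, Sdc4 and Des this did not hold in both. Macrophage markers were abundant throughout, with a sum over 12 genes of 11869 to 35315 RPM in NC and 19533 to 24262 RPM in HC, and all 12 were in the table. Of 15 T and NK cell markers 13 averaged under 1 RPM, Cd3d and Cd3e being near 0.

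Of the 81 genes 5 had no read in any library, namely Il1rapl1, Il1f10, Il22ra1, Il25 and Il17d. Another 18 had no more than 3 reads in each library, among them Il2, Il9, Il17a and Il21, which activated T cells are known to secrete. A further 18 averaged under 1 RPM, 14 averaged 1 to 10 RPM and 26 averaged 10 RPM or more. Il4 and Il13, the ligands of Il4ra, were above that floor, with 85 and 111 reads over the 7 libraries. Several receptor chains were measured with far more reads, among them Il10rb (mean 815 RPM), Il4ra (572 RPM), Il10ra (348 RPM) and Il6st (230 RPM).

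Genes were tested with limma on log2(RPM + 1), and a gene was called at the 2 thresholds of the study, a fold over 1.5 together with a p, unadjusted, below 0.05. By this rule 8 of the 81 genes differed, 6 being higher in HC and 2 lower. That is 9.88% of the members, against 2.57% of all 23930 genes. Higher calls made up 1.43% of all genes and lower calls 1.14%. Among the 40 members that averaged at least 1 RPM the share was 20%, against 4.75% of the 12504 genes at that level. The higher genes were Il4ra, Il7r, Il21r, Il15, Il16 and Il18, and the lower were Il13ra1 and Il15ra. None of the 81 had an adjusted p under 0.05 by limma with Benjamini-Hochberg adjustment over all 23930 genes, and 9 of them had an unadjusted p under 0.05, against 4.66% of all genes. With edgeR and its filter 8 members were called, against 6.03% of genes, and with DESeq2 10, against 6.25%, and neither left a member after adjustment. The calls split into 4 higher and 4 lower with edgeR and 5 and 5 with DESeq2. The lowest adjusted p of a member, from limma with Benjamini-Hochberg adjustment, was 0.65, so each call below rests on the unadjusted p. With limma 0 of all genes (0%) passed the adjusted threshold, 1114 having an unadjusted p under 0.05, and with DESeq2 29 genes (0.139%) passed.

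**Figure D1:**
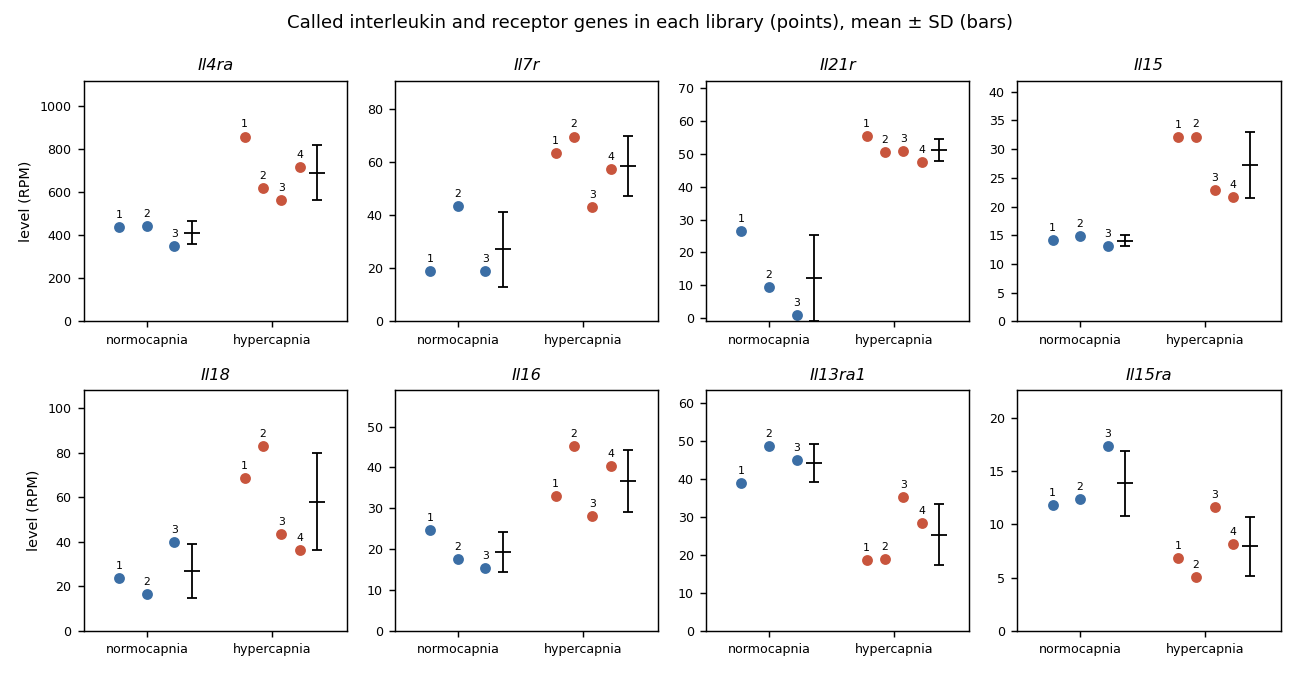
Level in RPM (vertical axes, linear) of the 8 called genes in each library, NC in blue and HC in red, with the group mean and an error bar of 1 SD beside the points (n = 3 and n = 4). The 4 HC libraries sit above all 3 NC libraries for Il4ra, Il21r, Il15 and Il16 and below them for Il13ra1 and Il15ra, while for Il7r and Il18 an NC library exceeds the lowest HC library; the lower end of the NC error bar of Il21r falls below 0 because its SD exceeds its mean.

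Receptors of the common gamma chain group made up 4 of the 8 called genes. These receptors pair a private chain with the shared gamma chain Il2rg, and 8 of their chains were in the table. Il4ra, the chain that binds IL-4 and serves both IL-4 and IL-13 receptors, was at 441 RPM in NC1, 446 in NC2 and 350 in NC3. It was at 860 RPM in HC1, 622 in HC2, 566 in HC3 and 720 in HC4. Every HC library lay above every NC library. The mean was 412 ± 54.1 RPM (SD, n = 3) in NC and 692 ± 129 RPM (SD, n = 4) in HC, a ratio of 1.68. The log2 fold change was 0.74 (SE 0.17), with an unadjusted p of 0.007 and an adjusted p of 0.806 by limma. The call was kept in 15 of the 17 alternatives and lost in both edgeR fits, at unadjusted p of 0.0681 and 0.0886.

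Il7r, the IL-7 receptor alpha chain, known for its role in lymphocyte survival, was at 19.0 RPM in NC1, 43.5 in NC2 and 19.1 in NC3. Its levels in HC1 to HC4 were 63.6, 69.6, 43.2 and 57.5 RPM. NC2 lay level with HC3, the lowest HC library, and the other 5 libraries fell apart by group. The log2 fold change was 1.16 (SE 0.35), with an unadjusted p of 0.017 and an adjusted p of 0.909 by limma. Without NC1 and without NC3 the call was lost, each at a log2 fold change of 0.97.

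Il21r, the private chain of the IL-21 receptor, had the largest fold change of the 8. It was at 26.5 RPM in NC1, 9.28 in NC2 and 0.895 in NC3, and at 55.6, 50.5, 50.8 and 47.4 RPM in HC1 to HC4. The HC libraries were tightly grouped (51.1 ± 3.37 RPM, SD, n = 4), whereas the NC libraries ran from under 1 RPM upwards (12.2 ± 13.1 RPM, SD, n = 3). Its log2 fold change was 2.68 (SE 0.90), with an unadjusted p of 0.027 and an adjusted p of 0.915 by limma. The size turned on NC3, and over the alternatives tried it ran from 1.63 to 3.56. The call was lost when NC2 or any 1 of the HC libraries was left out, with unadjusted p between 0.0563 and 0.0611. The ligand was not measurable, Il21 having 1 read in all 7 libraries together.

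Il15ra, which presents IL-15 to neighbouring cells, was the called receptor of this group that was lower in HC. It was at 11.8, 12.4 and 17.3 RPM in NC1 to NC3 and at 6.85, 5.08, 11.6 and 8.13 RPM in HC1 to HC4. The highest HC library, HC3, lay just below the lowest NC library, NC1. The log2 fold change was -0.76 (SE 0.28), with an unadjusted p of 0.037 and an adjusted p of 0.915 by limma, and it was called in 7 of the 17 alternatives. The shared chain Il2rg was at 0.892, 3.76 and 0.620 RPM in NC and at 2.87, 2.91, 2.62 and 1.63 RPM in HC, with overlap between the groups through NC2. Without NC2 it was called higher, at a log2 fold change of 0.98 against 0.50 with all libraries.

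Il4ra and Il21r are adjacent protein-coding genes on chromosome 7, and Il7r lies on chromosome 15. The 250 bases before the start of each are shown because these 3 receptors were higher in HC and share the JAK-STAT route. The sequences are those of RefSeq (GRCm38.p6), 5′ to 3′ on the strand of the gene, at chr7:125552021-125552270 (plus strand) for Il4ra, chr7:125603179-125603428 (plus strand) for Il21r and chr15:9529877-9530126 (minus strand) for Il7r. Capitals mark a match to the STAT site TTCNNNGAA, searched on both strands.
Il4ra: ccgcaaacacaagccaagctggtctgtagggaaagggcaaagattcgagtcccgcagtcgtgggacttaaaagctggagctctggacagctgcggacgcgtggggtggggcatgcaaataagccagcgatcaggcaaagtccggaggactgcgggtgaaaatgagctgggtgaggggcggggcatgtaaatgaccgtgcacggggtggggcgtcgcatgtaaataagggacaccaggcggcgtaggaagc
Il21r: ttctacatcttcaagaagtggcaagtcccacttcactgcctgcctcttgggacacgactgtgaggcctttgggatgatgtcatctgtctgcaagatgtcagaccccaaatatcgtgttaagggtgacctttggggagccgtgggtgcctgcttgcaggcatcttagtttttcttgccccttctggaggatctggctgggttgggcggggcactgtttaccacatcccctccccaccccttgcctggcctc
Il7r: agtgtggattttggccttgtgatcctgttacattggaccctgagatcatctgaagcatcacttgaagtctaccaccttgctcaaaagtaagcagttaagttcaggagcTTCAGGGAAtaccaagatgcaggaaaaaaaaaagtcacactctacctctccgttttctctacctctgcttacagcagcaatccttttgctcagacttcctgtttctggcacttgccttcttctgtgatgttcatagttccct
The Il7r window held 1 match, 142 bases before the start, and the other windows held none. Of 32851 windows of this length 7.02% held the site, and of the 79 windows of members 11.4%. The STAT6 form of the site, with 1 more base between its arms, was found in 5.85% of all windows, in 17.7% of those of members and, among the called genes with a window, in that of Il18. The AP-1 site TGANTCA was found in 6.75% of all windows, in 17.7% of those of members and in those of Il15ra and Il16, and the core of the interferon-stimulated response element in 2.98%, in 2.53% of those of members and in none of those of the called genes. These matches are letters only and carry no measurement of binding.

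Among the ligands of the same group only Il15 averaged 1 RPM or more. Il15, a survival factor of NK and memory T cells that skeletal muscle is also known to express, was at 14.2 RPM in NC1, 14.96 in NC2 and 13.1 in NC3. It was at 32.1 RPM in HC1, 32.2 in HC2, 22.9 in HC3 and 21.7 in HC4. The groups did not overlap, and the NC libraries lay within 2 RPM of each other. The mean was 14.1 ± 0.950 RPM (SD, n = 3) in NC and 27.2 ± 5.72 RPM (SD, n = 4) in HC, and the log2 fold change was 0.88 (SE 0.17), with an unadjusted p of 0.003 and an adjusted p of 0.65 by limma. The call was kept in 16 of 17 alternatives and was lost with quantile normalization (0.72, unadjusted p 0.0869). Il7, the ligand of Il7r and the ninth member with an unadjusted p under 0.05, had 6, 6 and 3 reads in NC and 2, 1, 2 and 2 reads in HC. All HC libraries were below all NC libraries on the RPM scale (0.268, 0.257 and 0.207 against 0.086, 0.050, 0.125 and 0.135). Its log2 fold change was -0.18 (SE 0.04, unadjusted p 0.00301, adjusted p 0.679, limma), too small to be called, and Il7 was called lower with a pseudocount of 0.1 RPM. Il4 was at 1.12, 0.641 and 0.688 RPM in NC and at 0.300, 0.151, 0.437 and 1.22 RPM in HC, and Il13 at 1.12, 1.15 and 1.03 RPM against 0.599, 0.050, 0.875 and 1.02 RPM. Il13 was lower in every HC library and Il4 overlapped, and both were called only with quantile normalization among the 17 alternatives. Il7, Il4 and Il13 are described because of values already known.

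Il15 and its receptor chain moved in opposite directions. Written as a log2 ratio of RPM + 1 within a library, Il15ra over Il15 was -0.25, -0.26 and 0.38 in NC1 to NC3. It was -2.08, -2.45, -0.92 and -1.32 in HC1 to HC4. The groups did not overlap and the difference in means was -1.65 (exact permutation test, two-sided, p = 0.0571, 0.114 after Benjamini-Hochberg adjustment over the 6 ratios compared). With 3 against 4 libraries the smallest p this test allows is 0.0286. Because the limma calls of both genes were known when the ratio was computed, it is not independent of them.

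The IL-4 and IL-13 receptors share Il4ra, which pairs with Il2rg for IL-4 alone and with Il13ra1 for either ligand. Il13ra1 was at 38.8 RPM in NC1, 48.7 in NC2 and 45.0 in NC3, and at 18.7, 18.8, 35.3 and 28.3 RPM in HC1 to HC4. All HC libraries were below all NC libraries, HC3 being the nearest. The log2 fold change was -0.83 (SE 0.26), with an unadjusted p of 0.020 and an adjusted p of 0.915 by limma. It was lost without NC2 (-0.75, unadjusted p 0.0675) and without NC3 (-0.81, unadjusted p 0.0585). The log2 ratio of Il4ra to Il13ra1 was 3.47, 3.17 and 2.93 in NC and 5.45, 4.97, 3.96 and 4.62 in HC, again without overlap. The difference was 1.56 (exact permutation test, two-sided, p = 0.0571, adjusted 0.114). For Il7r over Il2rg the difference was 0.66 with overlap of the groups (exact permutation test, two-sided, p = 0.0857, adjusted 0.129). That difference was 0.34 with a pseudocount of 0.1 RPM (exact permutation test, two-sided, p = 0.457).

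**Figure D2:**
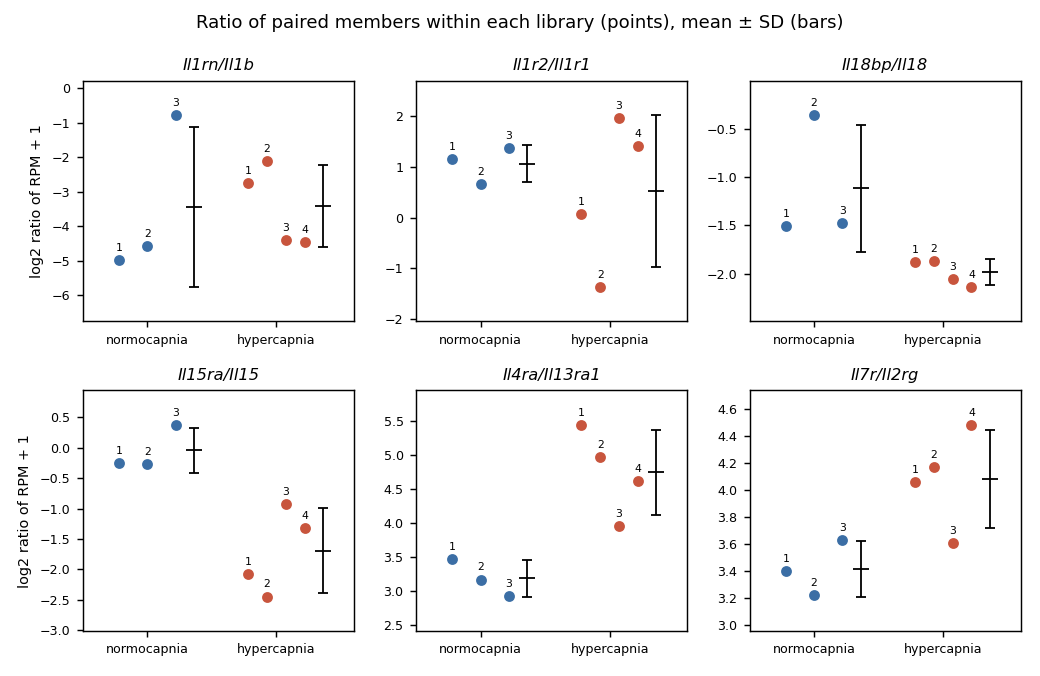
Log2 ratio of the paired members within each library (vertical axis, log2 of RPM + 1 over RPM + 1), 1 point per library (NC blue, HC red) with the mean and 1 SD beside them (n = 3 and n = 4), for the 6 pairs compared. The groups are apart for Il18bp/Il18, Il15ra/Il15 and Il4ra/Il13ra1 and overlap for Il1rn/Il1b, Il1r2/Il1r1 and Il7r/Il2rg.

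The ligands of the IL-1 group include alarm cytokines of myeloid and barrier cells, and 6 of the 10 averaged 1 RPM or more. Il18, which is cut by caspase-1 before release, was the only one called by limma on log2(RPM + 1). It was at 23.8, 16.5 and 39.99 RPM in NC and at 68.7, 83.0, 43.4 and 36.5 RPM in HC1 to HC4. NC3 exceeded HC4, and HC1 and HC2 carried the highest values. They did so too for the macrophage genes Adgre1, C1qb, Cd68, Mrc1, Fcgr1 and, near 0, C1qa. Of the other macrophage markers, Csf1r, Itgam, Mertk and Cd163 were highest in NC2, Lyz2 in NC3, and C1qc in HC1 and NC2. The part of these markers in the level of Il18 was not tested. The log2 fold change was 1.10 (SE 0.42), with an unadjusted p of 0.042 and an adjusted p of 0.915 by limma, and it was called in 6 of 17 alternatives. The call was lost with both other scalings, by edgeR and DESeq2, with the replicate block and without NC1, NC2, HC1, HC2 or HC3.

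Il18bp, the secreted inhibitor of IL-18, was at 7.72, 12.7 and 13.7 RPM in NC and at 17.9, 21.9, 9.68 and 7.52 RPM in HC. Like Il18 it was highest in HC1 and HC2. The log2 ratio of inhibitor to ligand was -1.51, -0.36 and -1.48 in NC and -1.88, -1.87, -2.06 and -2.14 in HC, so that all 4 HC libraries were lower. The difference was -0.87 (exact permutation test, two-sided, p = 0.0286, the smallest the design allows, 0.114 adjusted over the 6 ratios). The NC library farthest from HC was NC2, and without NC2 the difference was -0.49.

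Il1b, the secreted alarm cytokine that is also processed by caspase-1, was at 1061 RPM in NC1, 2243 in NC2 and 210 in NC3. It was at 469, 244, 1776 and 1214 RPM in HC1 to HC4. Both groups spanned nearly their whole joint range, and the log2 fold change was -0.17 (SE 1.09). Il1a, its membrane-associated relative, was at 12.8, 232 and 41.6 RPM in NC and at 13.4, 5.33, 26.9 and 13.1 RPM in HC. A single library, NC2, stood far above the other 6. Il6, a cytokine of another family, had the same high library, at 4.73, 44.3 and 11.6 RPM in NC and at 4.32, 1.46, 10.4 and 5.62 RPM in HC. Neither was called by limma (-1.91, SE 1.06, and -1.40, SE 0.86), but edgeR and DESeq2 on the recovered reads called both, with log2 fold changes of -2.88 and -2.09 by edgeR with its filter. Without NC2 the log2 fold changes from limma were -0.82 for Il1a (unadjusted p 0.346) and -0.60 for Il6 (unadjusted p 0.452). Without NC1 they were -2.86 (unadjusted p 0.0331), at which Il1a was called, and -2.09 (unadjusted p 0.0605).

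Il1rn, the receptor antagonist that competes with IL-1, was at 33.0, 92.7 and 122 RPM in NC and at 69.8, 56.0, 83.4 and 55.0 RPM in HC. Its ratio to Il1b differed between groups by 0.03 on the log2 scale (exact permutation test, two-sided, p = 1.0). Some receptors and ligands of the group, chosen here for that pattern, were divided inside HC. Il1r2, the decoy receptor, was at 81.7, 29.5 and 23.5 RPM in NC and at 17.4, 5.38, 154 and 105 RPM in HC. HC1 and HC2 were the lowest 2 of all 7 libraries and HC3 and HC4 the highest 2. Il1f9, an IL-36 ligand, had the same order of pairs (12.4, 2.57 and 7.37 RPM in NC, 4.75, 1.21, 27.1 and 19.97 RPM in HC), with NC2 also low. Il1r1, the signalling receptor, was at 16.5 and 15.4 RPM in HC1 and HC2 and at 38.4 and 38.8 RPM in HC3 and HC4, beside 36.1, 18.1 and 8.47 RPM in NC. Il1rl1, the IL-33 receptor known from mast cells and type 2 lymphocytes, was at 12.2 and 12.5 RPM against 36.5 and 41.8 RPM, beside 26.7, 26.0 and 32.6 RPM in NC.

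These 2 pairs of HC libraries also differed in the markers of most other cell types examined. The summed neutrophil markers were at 222, 92.6 and 65.7 RPM in NC and at 114, 78.5, 296 and 200 RPM in HC1 to HC4. The summed mast cell, basophil and eosinophil markers were at 1903, 1314 and 1278 RPM in NC and at 1083, 863, 2390 and 2397 RPM in HC1 to HC4. Summed endothelial markers were at 78.2 and 60.3 RPM in HC1 and HC2 and at 595 and 456 RPM in HC3 and HC4, dendritic cell markers at 96 and 66.4 against 197 and 210 RPM. Markers of fibro-adipogenic cells were at 1053 and 957 against 1951 and 2345 RPM, those of satellite cells at 805 and 774 against 1493 and 1275 RPM and those of myofibers at 686 and 387 against 1306 and 2356 RPM. The summed macrophage markers were at 24262 and 20904 against 19533 and 20321 RPM. Some single macrophage genes were divided the other way, among them Adgre1 at 392 and 429 against 151 and 184 RPM. C1qb was at 1028 and 1061 against 271 and 422 RPM. Cd68, Mrc1, Fcgr1, Mertk, C1qc and C1qa were divided like these. Csf1r, Itgam, Lyz2 and Cd163 overlapped between the pairs, Itgam being at 1391 and 1509 against 1398 and 1461 RPM. The neutrophil and mast cell group sums each covered 11 genes, all in the table, of which 5 neutrophil and 10 mast cell group genes averaged 1 RPM or more. The part of all these markers in the levels of Il1r2, Il1f9, Il1r1 and Il1rl1 was not tested, and in bulk cells fewer cells of a type and less RNA per cell cannot be told apart. Il1r2, Il1r1, Il1rl1 and Il18rap lie in 1 run of 6 adjacent receptor genes. Il18rap, singled out after its values were seen, had the same split, at 5.18 and 3.32 RPM in HC1 and HC2 and at 15.8 and 14.6 RPM in HC3 and HC4. Il1rl2, of the same run and likewise singled out afterwards, went the other way, at 3.68 and 2.21 RPM in HC1 and HC2 and at 0.937 and 1.56 RPM in HC3 and HC4. The ratio of the decoy to the signalling receptor, Il1r2 over Il1r1, differed by -0.54 between groups (exact permutation test, two-sided, p = 0.686).

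**Figure D3:**
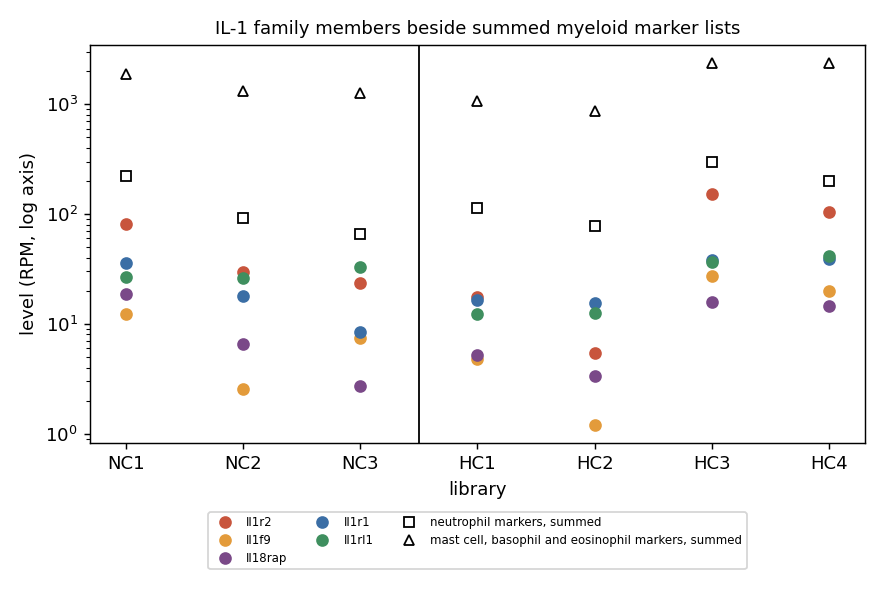
Level in each of the 7 libraries (log vertical axis, RPM) of Il1r2, Il1f9, Il18rap, Il1r1 and Il1rl1 beside the summed neutrophil and the summed mast cell, basophil and eosinophil markers, 1 point per library. HC1 and HC2 lie below HC3 and HC4 for each of them.

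Of the IL-10 family 1 of 5 ligands and 3 of 6 receptors averaged 1 RPM or more, and limma on log2(RPM + 1) called none. Il20rb, a receptor chain of this family singled out afterwards, was at 13.6, 15.9 and 7.43 RPM in NC and at 7.06, 5.83, 9.56 and 9.95 RPM in HC. It was called lower with median-of-ratios scaling, with quantile normalization, by DESeq2 and without NC3. Il10rb, the shared second chain, was at 519, 864 and 340 RPM in NC and at 1244, 982, 653 and 1101 RPM in HC, with NC2 above HC3. Its log2 fold change was 0.86 (SE 0.38), and the unadjusted limma p was 0.071. The call appeared without NC2 (1.20) and without HC3 (1.05). Il10ra, the private chain, was at 297, 455 and 50.8 RPM in NC and at 435, 477, 284 and 436 RPM in HC. NC3 stood low, and the log2 fold change was 1.07 (SE 0.79), which was 0.12 without NC3 and 1.69 without NC2. The ligand Il10, a cytokine that restrains macrophages, was at 19.3, 168 and 246 RPM in NC and at 219, 199, 120 and 59.0 RPM in HC, with full overlap.

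In the IL-6 and IL-12 group the shared signalling chain Il6st was at 261, 241 and 252 RPM in NC and at 158, 168, 285 and 245 RPM in HC. HC1 and HC2 were again the low pair. Il6ra, which binds IL-6 itself, was at 21.0, 68.7 and 3.92 RPM in NC and at 28.4, 30.5, 17.6 and 19.8 RPM in HC, all HC values lying inside the NC range. In this group and the IL-17 group limma on log2(RPM + 1) called no member, Il6 being called by edgeR and DESeq2. Il17ra, the common chain of IL-17 receptors, was at 28.9, 59.5 and 39.2 RPM in NC and at 27.8, 32.9, 38.2 and 30.5 RPM in HC, while the IL-17 ligands averaged at most 0.0887 RPM (Il17b). The remaining abundant receptor chains were as uneven within groups as between them. Il3ra, the IL-3 receptor alpha chain, had a log2 fold change of -0.40 (SE 0.27), Il1rap, the accessory chain of IL-1 receptors, of -0.04 (SE 0.24) and Il11ra1, the IL-11 receptor, of 0.70 (SE 0.50). For each of these 3 the groups overlapped, and the value for Il11ra1 was 0.14 without NC3 and 1.01 without NC1.

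Il16, which is a T cell and eosinophil attractant made as a larger precursor and belongs to none of these families, was the last gene called. It was at 24.8, 17.5 and 15.4 RPM in NC and at 33.0, 45.3, 28.1 and 40.4 RPM in HC. The groups were apart, with NC1 the nearest to HC. The log2 fold change was 0.90 (SE 0.23), with an unadjusted p of 0.009 and an adjusted p of 0.827 by limma, and the call was kept in 16 of 17 alternatives.

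**Figure D4:**
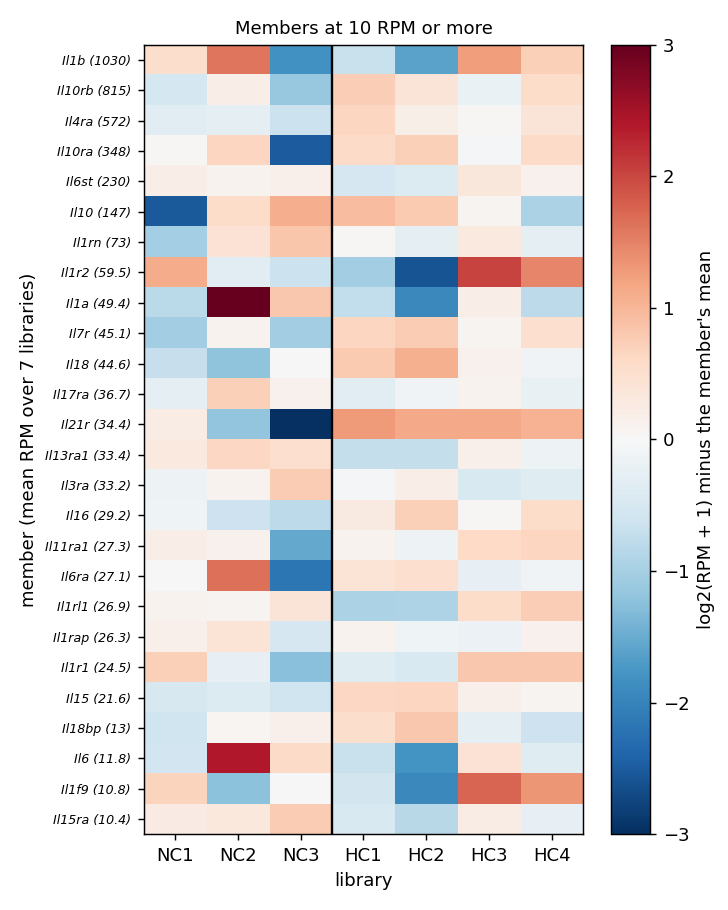
The 26 members at a mean of 10 RPM or more (vertical axis, mean RPM in brackets) in each of the 7 libraries (horizontal axis), coloured by log2(RPM + 1) minus the mean of that gene over the libraries, with values beyond 3 either way given the end colour. NC2 stands out for Il1a and Il6, NC3 for low Il21r, and HC1 with HC2 against HC3 with HC4 for Il1r2 and Il1f9.

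Over the 40 members at 1 RPM or more, 22 had a higher mean log2 level in HC and 18 a lower one. Among all 12504 genes at that level 7765 were higher and 4739 lower, so the members leaned to higher less than genes at large. The median log2 fold change was 0.27 over these members and 0.16 over all genes at that level. Groups did not overlap for 6 of the 40 members (15%), against 7.72% of all genes at that level. Of these, 4 were higher, against 4.09% of genes, and 2 lower, against 3.63%. The 6 were Il4ra, Il21r, Il15, Il16, Il13ra1 and Il15ra, all of them called. The 18 members at 10 RPM or more that were not called had standard errors of up to 1.29 on the log2 scale (Il1r2), which leaves changes of several fold undetectable for such genes.

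**Figure D5:**
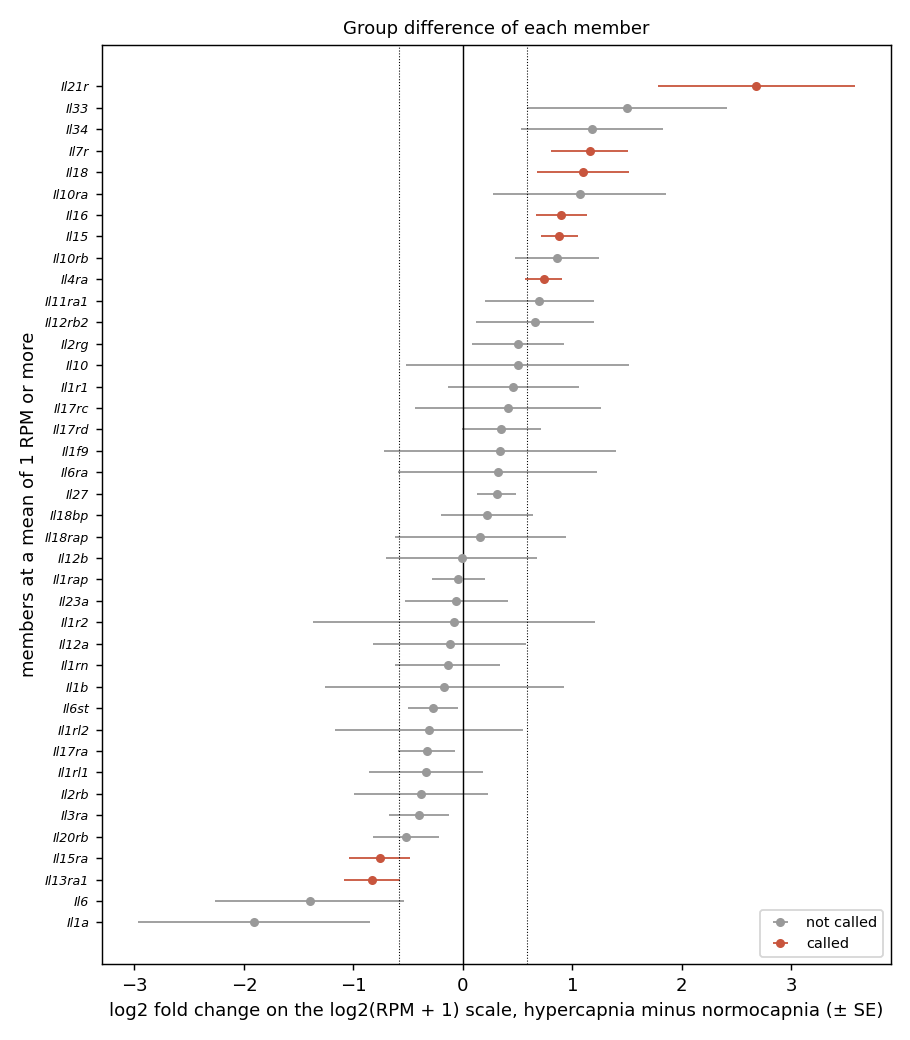
Log2 fold change (HC minus NC, horizontal axis, limma on log2(RPM + 1)) of the 40 members at a mean of 1 RPM or more, ordered by size, with bars of 1 SE, red points for the called genes, grey points for the rest and dotted lines at a fold of 1.5 either way. The called receptors Il4ra, Il7r and Il21r lie right of 0 and Il13ra1 and Il15ra left of it, while the bars of Il1r2, Il1b, Il1a and Il1f9 are among the widest.

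Genes that carry or answer interleukin signals were counted in 5 lists. By limma on log2(RPM + 1), unfiltered, no gene was called among 23 partner ligands and receptors with other names, 17 JAK, STAT and SOCS genes, 22 genes of IL-1 signalling and processing or 10 genes of IL-17 signalling. With edgeR and its filter 1 or 2 genes of each of these lists were called, namely Ifngr1 and Csf3r among the partners, Bcl3, Nlrp3 and Cebpb. DESeq2 called these too, and also Csf3 among the partners. Other limma settings on all 7 libraries called Ifngr1 (the filter and the trended prior), Csf3r (median-of-ratios scaling) and Ptpn6 (quantile normalization), and the replicate block called Jak2, Stat2 and Cebpd. Of 16 genes that IL-4 and IL-13 are known to induce, 1 was higher and 1 lower. Pparg, a nuclear receptor of alternatively activated macrophages, was at 17.3, 16.5 and 12.4 RPM in NC and at 25.9, 31.4, 31.4 and 25.3 RPM in HC, a log2 fold change of 0.85 (adjusted p 0.65, limma). Ccl17, a chemokine, was at 1.96, 4.02 and 10.3 RPM in NC and at 0.257, 0.251, 1.25 and 1.42 RPM in HC, a log2 fold change of -1.69 (adjusted p 0.915, limma). The groups did not overlap for either of these, nor for Tgm2 (higher, unadjusted p 0.0838) and Pdcd1lg2 (lower, unadjusted p 0.0323, below 1 RPM), which were not called. Tgm2 was called with the filter at 1 RPM, by edgeR and by DESeq2, and Pdcd1lg2 with a pseudocount of 0.1 RPM. Mrc1 and Retnla, which had the highest mean RPM of that list, overlapped between groups at log2 fold changes of 0.37 and -0.52. In the other lists Jak1 and Pim1, Nfkbia and Nfkbiz, Ifngr1 and Csf1r, and Cebpb had the highest mean RPM, and limma on log2(RPM + 1), unfiltered, called none of them. Macrophage markers, which bear on any receptor those cells carry, included 1 called gene of 12, Adgre1, at 109, 149 and 70.5 RPM in NC and at 392, 429, 151 and 184 RPM in HC (log2 fold change 1.31). Its part in the levels of Il4ra, Il7r and Il21r was not tested.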

How the data were processed

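Bulk RNA was measured in 7 libraries of sorted Pax7-GFP+ cells (3 NC and 4 HC), grouped by the sample labels. The authors prepared Ion AmpliSeq libraries, and deposited 1 table of RPM, in which the reads of each library are brought to the same total. The Transcriptome Analysis Console is named in the submitters' processing notes, and for the aligner and the genome build nothing was given in the sources used here. Whole reads were recovered from the RPM steps, and 100% of values came out whole within 0.05 reads. The recovered totals were 14527445 to 23388710 reads, and 3 reads correspond to 0.128 to 0.207 RPM, which covers counting error only. All 23930 genes were fitted on log2(RPM + 1), unfiltered, with limma 3.58.1 (R 4.3.3), so folds of low genes are understated. Fold changes are on that scale, p-values were adjusted by Benjamini-Hochberg over all genes, and the adjusted p beside each gene is from this fit. The methods were tested on simulated data.

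The alternatives, 17 in number, were pseudocounts of 0.1 and 5 RPM, removal of genes averaging under 1 RPM, scaling by median of ratios, quantiles, limma with a trended prior, edgeR 4.0.16 (quasi-likelihood, with and without a filter), DESeq2 1.42.0, the replicate number as a block and leaving out each library. The rule for values covered 27 members. These were called, averaged at least 10 RPM, belonged to a ratio pair or did not overlap between groups at 1 RPM or more. For pathway genes, values were given for those called or among the 2 with the highest mean RPM of a list. The members, lists and ratio pairs were chosen with earlier results of these data known. Promoter windows came from RefSeq (64 of 81 members matched) and not from the build of the authors. Il1bos is antisense to Il1b, and without a statement on strand their reads cannot be told apart. Il11ra1 has a near-identical copy, so its value is uncertain.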

Additional observations from a re-analysis of the deposited data

How the results depend on the processing

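The 8 called genes kept their direction in each of the 17 alternatives, and 0 of them changed sign, but the calls did not all hold. Il15 and Il16 were called in 16 alternatives, Il4ra and Il7r in 15, Il13ra1 in 14, Il21r in 11, Il15ra in 7 and Il18 in 6. Scaling by median of ratios moved the median log2 fold change of all genes at 1 RPM or more from 0.16 to 0.04 and that of the members from 0.27 to 0.14, and quantile normalization moved them to -0.01 and -0.04. Among pathway genes 2 were called by limma, and the count was 5 with the filter, 4 with the prior that follows the mean, 9 and 8 with edgeR with and without a filter and 10 with DESeq2, for which the cause was not tested. Over the fits that left out 1 library, calls numbered 5 (without HC1 or HC2) to 9 (without NC1) among members and 1 to 10 among pathway genes, the median of the members was -0.07 (without NC3) to 0.43 (without NC1), and groups did not overlap for 6 to 13 members, 13 being reached without NC1, where 29% of genes did not overlap. Without HC1 or HC2 the calls of Il18, Il21r and Il15ra were lost.

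The deviations of same-numbered NC and HC libraries correlated at -0.349, 0.503 and -0.044, and those of libraries with other numbers at -0.42 to 0.452. With so few same-numbered values, whether the replicate numbers pair the libraries cannot be settled. With the replicate block 4 members were called (Il7r, Il15, Il15ra and Il4ra), 5 pathway genes were called, and the log2 fold change of Il1f9 was -0.05. Among the 27 members that met the rule for values, signs changed for 9, none called by limma on all libraries. Changes were seen for Il1r2 at 0.03 with a pseudocount of 5 RPM, for Il18bp at -0.02 with quantile normalization, and for 3 genes in the count tests. These were Il10, Il1r2 and Il6ra, at -0.25, 0.60 and -0.38 by edgeR with a filter, -0.19, 0.58 and -0.40 without it and -0.30, 0.56 and -0.39 by DESeq2. Leaving out each library in turn gave -1.13 to 0.58 for Il1b, -0.61 to 1.19 for Il10, -0.70 to 0.23 for Il1rn, -0.77 to 0.77 for Il1r2, -0.68 to 1.23 for Il6ra, -0.30 to 0.16 for Il1rap, -0.04 to 0.95 for Il1r1, -0.01 to 0.47 for Il18bp and -0.20 to 1.03 for Il1f9. Of these 9, Il1rn alone was called in any such fit (without NC1, -0.70). The same omissions gave -0.74 to 1.36 for the log2 ratio of Il1rn to Il1b, -1.03 to 0.09 for Il1r2 to Il1r1 and -1.07 to -0.49 for Il18bp to Il18, the last no longer under a p of 0.05 because fewer libraries allow no smaller exact p than 0.0667 or 0.1. Genes near the floor of 3 reads, 0.128 to 0.207 RPM, rest on a few reads, and their fold changes depend on the pseudocount.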
